A study of Mus musculus with 15 samples.

Results

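The 3 libraries titled d2-Control were compared with the 3 titled ESC, which are 6 of the 15 libraries of the series, over the counts of every gene. Per the labels, both groups were cells of the mouse embryonic stem cell line E14TG2 and both carry the genotype Control, the ESCs at day 0 and the d2-Control cells at day 2 of a culture that turns embryonic stem cells (ESCs) into cells like the epiblast (epiblast-like cells, EpiLCs). ESCs had been kept on inactivated mouse embryonic fibroblasts as feeders with serum replacement, LIF, the MEK inhibitor PD0325901 and the GSK3 inhibitor CHIR99021. For the transition, cells were seeded on fibronectin in N2B27 medium with Activin A, bFGF and serum replacement. Polyadenylated RNA was extracted with TRIzol and sequenced. No label names a culture for each library, so the p-values rest on the spread within groups of 3 samples that could be technical replicates. The remaining 9 libraries are of control cells at day 4 and of Atg7 KO cells at days 2 and 4, and are used here for the estimate of the spread and, where named, as later levels.

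ESCs held in LIF with both inhibitors resemble the naive epiblast before implantation, in which Nanog, Esrrb, Klf and Tfcp2l1 proteins keep the lineage genes silent and LIF acts through STAT3. Removal of the inhibitors releases ERK and lowers beta-catenin activity, and activin and FGF then lead cells towards a formative, early post-implantation epiblast known for Fgf5, Otx2, Pou3f1 and de novo DNA methylation. Whether and how far these genes had moved after the first 2 days is the question that the comparison addresses.

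The 6 libraries held 16318652 to 22290971 counts, and 17384 to 18652 genes had at least 1 count. Levels below are CPM, a gene's share of a library's counts, on library sizes scaled by TMM, a normalization that assumes most genes do not change. They are not divided by gene length, so levels of different genes are not compared. Log2 fold changes are d2-Control minus ESC. Hprt, the purine salvage enzyme, lies at chrX:52988078-53021660 (GRCm38.p6) and was at 183, 203 and 200 CPM in ESC replicates 1 to 3 against 2.51, 2.22 and 2.29 CPM at day 2. It fell by 6.38 on the log2 scale (SE 0.106, edgeR adjusted p = 8.2e-17), and all 12 libraries of days 2 and 4, KO included, lay between 1.59 and 2.94 CPM. The Y-linked genes Ddx3y and Eif2s3y, which were chosen after their values were seen, fell too, from 108 to 125 and from 107 to 112 CPM in ESCs to 31.7 to 34.7 and 34.8 to 39.4 CPM at day 2. In the other 9 libraries Ddx3y was at 53.4 to 78.8 CPM. The labels give E14TG2 for all libraries, a line known as HPRT-deficient, and the ESC level of Hprt goes against that. Whether the ESC libraries come from the same stock of cells as the later ones cannot be told from the labels, so the day cannot be told apart from a difference in stock in any fold change below. Atg7, which is targeted in other libraries, was at 16.6 to 18.7 CPM in ESCs and 12.1 to 14.6 CPM at day 2 (log2 fold change -0.38, SE 0.101, edgeR adjusted p = 0.00433). With the collagen score defined below as a covariate, its log2 fold change was -0.32 (adjusted p = 0.0748).

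The ESC libraries differed among themselves in fibroblast RNA. The summed level of 10 defining fibroblast genes (Col1a1, Col1a2, Col3a1, Lum, Dcn, Thy1, Postn, Pdgfrb, Twist2 and Prrx1) was 1661 CPM in ESC replicate 1, 855 CPM in replicate 2 and 203 CPM in replicate 3, against 222 to 256 CPM at day 2. No marker of the 10 was at 0 counts in all 6 libraries, 6 of the 10 fell and 1, Thy1, rose. In bulk RNA, fewer cells of a type and less RNA per cell cannot be told apart. ESC replicate 3 also stood apart over all genes, with a chi-square per degree of freedom of 31.8 and 24.2 against replicates 1 and 2. Replicates 1 and 2 differed from each other by 5.86, and day 2 libraries by 3.70 to 5.66. The fit has 1 spread per gene for all 5 groups, so standard errors and p-values may understate the spread of the ESCs. An alternative fit had the collagen score (the mean log2 CPM of Col1a1, Col1a2 and Col3a1) as a covariate, in which Thy1 changed by 2.86 against 1.47 without it. The score was 8.93, 7.98 and 5.86 in ESC replicates 1 to 3 and 5.40 to 5.68 at day 2. Within groups it differed most between ESC replicate 3 and the other ESCs. A shift with the score therefore cannot be told apart from other traits of that library. The summed level of 6 naive markers (Nanog, Esrrb, Klf4, Tfcp2l1, Tbx3 and Nr5a2) was 4150 to 4460 CPM in ESCs and 1522 to 1581 CPM at day 2, and all 6 fell. Of the 6 epiblast-like markers Fgf5, Otx2, Pou3f1, Dnmt3b, Lef1 and Sall2, only Pou3f1 rose, and the summed level was 106 to 220 CPM in ESCs and 141 to 148 CPM at day 2. Fgf5 and Otx2 fell and the other 3 had no call (Sall2 was -0.23, and -0.57 with the collagen score, adjusted p = 0.014), so these markers did not set the day 2 libraries above the ESCs.

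**Figure D1:**
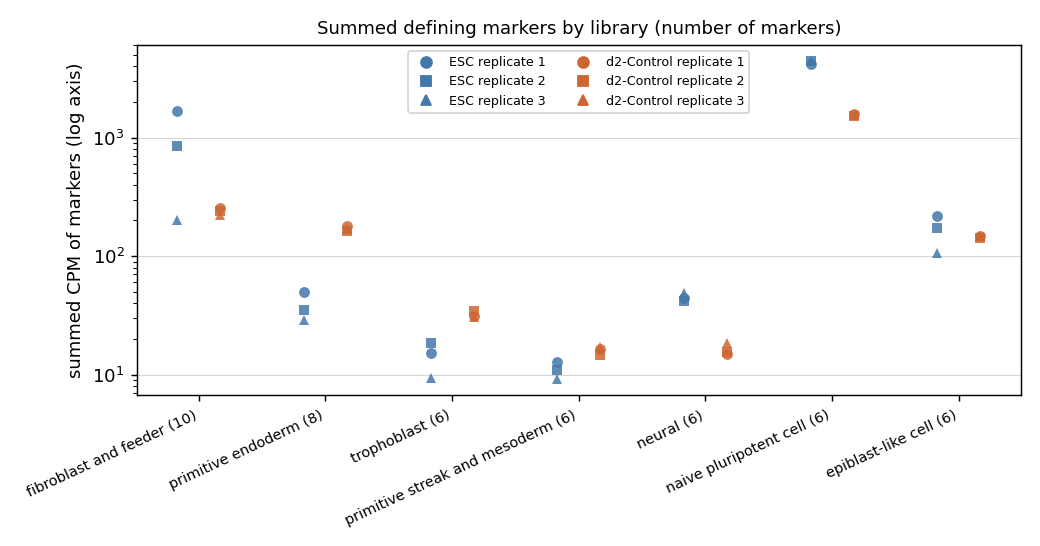
Summed CPM (log axis) of the defining markers of 7 cell types in each of the 6 libraries, with ESC in blue, d2-Control in orange and the number of markers in brackets. Fibroblast RNA spans 203 to 1661 CPM among the ESC libraries and 222 to 256 CPM at day 2, while the naive sum lies lower and the primitive endoderm sum (28.6 to 49.4 against 162 to 179 CPM) higher in every day 2 library.

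Of 24982 genes, 15696 passed the filter on low counts. At an adjusted p under 0.05, 5589 genes (35.6% of those tested) were higher at day 2 and 5483 (34.9%) were lower, and these shares are the background against which the counts of each list below are read. Of these, 2686 were higher and 1764 lower by at least 2-fold, and 467 and 188 by at least 8-fold. When the test was against a 1.5-fold change, 2954 genes were higher and 2319 lower. Most tested genes were called when no minimum fold was set, so the assumption behind TMM may not hold. Small shifts shared by the genes of a list therefore depend on the scaling. The median log2 fold change of all tested genes was 0.02, and 90% of genes lay between -1.66 and 2.44. The 2 groups did not overlap in 69% of tested genes, 5581 with day 2 above and 5253 with day 2 below. A lack of overlap in a gene named below is therefore common, and the rule for names favoured genes of small p or without overlap.

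Genes of the naive network fell. Of 24 members tested, 20 fell, 2 rose and 2 did not pass the test, with a median log2 fold change of -0.92. Esrrb, an orphan nuclear receptor of the naive network, was at 893, 913 and 764 CPM in ESCs and at 228, 211 and 215 CPM at day 2 (log2 fold change -1.98, SE 0.0718, edgeR adjusted p = 2.25e-12). The Krüppel-like factor Klf4 fell from 533, 550 and 654 CPM to 124, 118 and 119 CPM, and Klf2 from 180, 168 and 171 CPM to 55.9, 43.1 and 59.2 CPM. For these genes every ESC library lay above every day 2 library. Tdh, the mouse ESC threonine dehydrogenase at chr14:63492347-63509092, had the steepest fall of the list, from 724, 651 and 337 CPM to 33.5, 31.6 and 33.5 CPM (log2 fold change -4.12, SE 0.219, edgeR adjusted p = 1.09e-10). ESC replicate 3 was the lowest of the ESCs for Tdh and still about 10 times above day 2. The nuclear receptor genes Nr0b1 and Nr5a2 changed by -2.39 and -1.89, Spic by -2.18, Zfp296 by -1.82, Tfcp2l1 by -1.81 and Prdm14, a repressor of FGF signalling and DNA methylation, by -1.68.

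Other naive genes moved less or the other way. Nanog fell from 1069, 1162 and 1431 CPM to 551, 493 and 558 CPM (log2 fold change -1.19, SE 0.0991), and Tbx3 from 380 to 424 CPM to 314 to 321 CPM (-0.36, SE 0.0599). Neither gene's groups overlapped, but the fall of Tbx3 was under 1.5-fold. Zfp42, which encodes REX1, a marker commonly used for the naive state, rose from 126, 127 and 135 CPM to 239, 241 and 237 CPM (log2 fold change 0.88, SE 0.0489, edgeR adjusted p = 1.75e-10). Dppa3, known from naive cells and germ cells, was at 13.8, 20.9 and 18.5 CPM in ESCs and 25.3, 23.8 and 26.1 CPM at day 2 (log2 fold change 0.50, edgeR adjusted p = 0.0064). Its call was lost with the collagen score as a covariate (0.35, adjusted p = 0.124). Klf5 changed by -0.80, and by -0.38 with that covariate. Bmp4 was at 18.1, 9.81 and 3.69 CPM in ESC replicates 1 to 3, in the order of their fibroblast RNA, and at 17.02, 16.91 and 16.72 CPM at day 2, with no call (log2 fold change 0.68, edgeR adjusted p = 0.0563). Without ESC replicate 1 it was 1.32 (adjusted p = 9.41e-05).

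Of 20 genes of general pluripotency, 11 fell, 6 rose and 3 had no call, with a median log2 fold change of -0.35. The core factor Pou5f1 (Oct4) changed little, from 1068 to 1098 CPM to 814 to 910 CPM (log2 fold change -0.34, SE 0.0529), and Sox2 from 560 to 610 CPM to 310 to 326 CPM (-0.87, SE 0.0553). Sall4 and Sall1, zinc-finger partners of that core, fell more, by 1.55 and 1.51 on the log2 scale. The NODAL co-receptor gene Tdgf1 and the TGF-beta family gene Gdf3 changed by -1.21 and -1.54. Dppa4 rose by 0.56, Jarid2, a PRC2 accessory subunit, by 0.50, and the cell surface adhesion genes Epcam and Cdh1 by 0.99 and 0.30. Dppa2 rose by 0.37, but lost its call without d2-Control replicate 3 (0.28, adjusted p = 0.0725) or with only the 6 libraries in the fit (0.38, adjusted p = 0.0812), and was 0.19 without ESC replicate 3 and 0.74 with the collagen score. Lin28a, the let-7 regulator, was at 178, 164 and 47.4 CPM in ESCs and 146 to 153 CPM at day 2, so that ESC replicate 3 was far below the other 5 libraries. Its log2 fold change of 0.21 had no call and became -0.18 (edgeR adjusted p = 0.00531) without that library and 1.48 (adjusted p = 7.76e-06) with the collagen score.

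**Figure D2:**
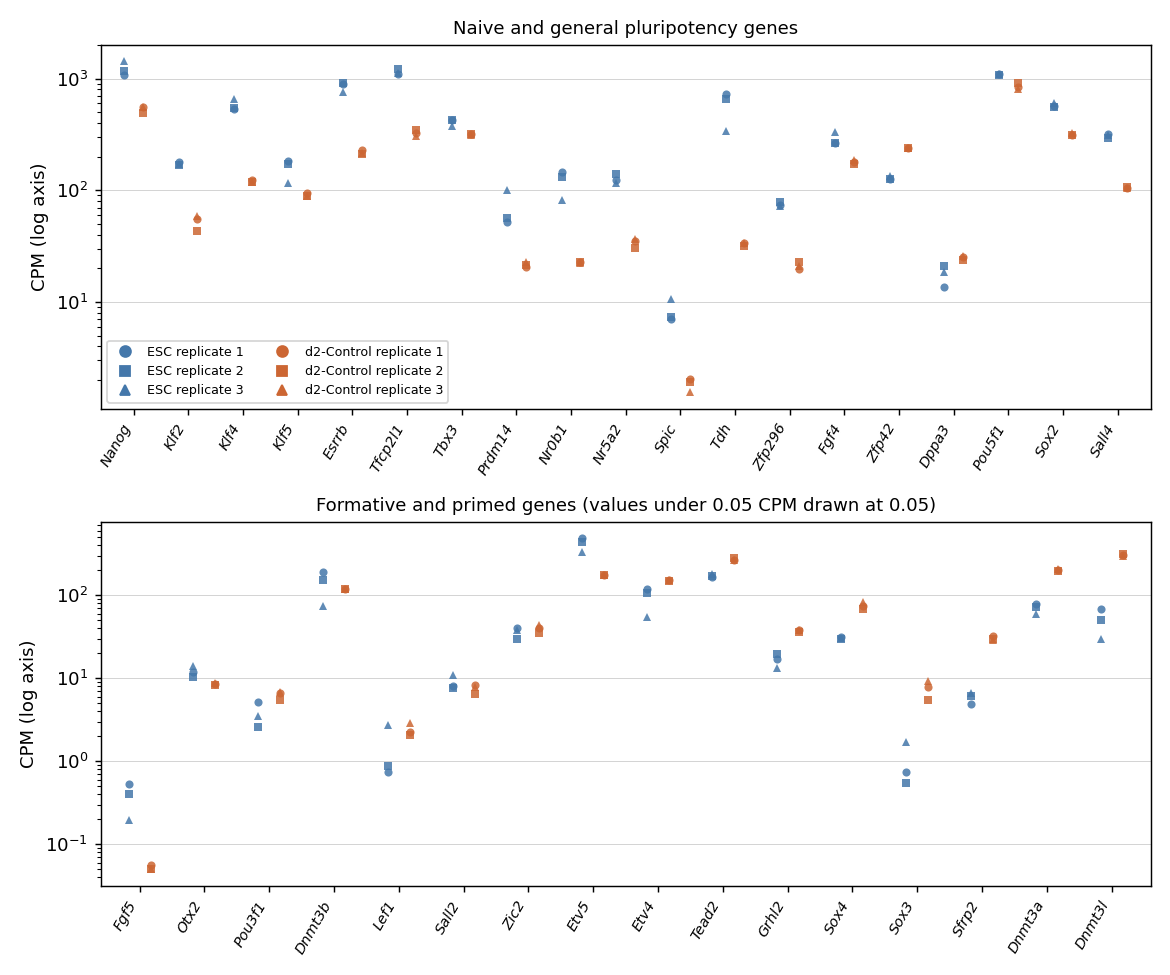
CPM (log axis) of naive and general pluripotency genes (top) and of formative and primed genes (bottom) in each library, ESC in blue and d2-Control in orange, with 1 symbol shape per replicate number. Tdh, Esrrb, Klf4 and Nr0b1 lie well below the ESC level at day 2 and Zfp42 above it, while Fgf5 and Otx2 do not rise and Dnmt3a, Sox3 and Sfrp2 do.

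Formative and primed genes were mixed: of 24 tested, 9 rose, 6 fell and 9 had no call, with a median log2 fold change of 0.14. With only the 6 libraries in the fit, 3 fell. Fgf5, the usual marker of EpiLCs, was at 0.537, 0.406 and 0.198 CPM in ESCs and at 0.0558, 0.0472 and 0 CPM at day 2. These values rest on a few reads per library, and the call (log2 fold change -3.30, edgeR adjusted p = 0.0022) was lost with the collagen score as a covariate (-2.61, adjusted p = 0.0762). In control cells at day 4 Fgf5 was at 0.353 to 0.966 CPM. Otx2, a homeobox gene of the post-implantation epiblast, was at 11.9, 10.4 and 14.1 CPM in ESCs and 8.59, 8.36 and 8.82 CPM at day 2 (log2 fold change -0.49, edgeR adjusted p = 0.0132), and without ESC replicate 3 it had no call (-0.37, adjusted p = 0.0539), while with the collagen score it was -0.81. At day 4 control cells held 23.9 to 36.2 CPM of Otx2. Pou3f1 (Oct6) rose from 2.57 to 5.17 CPM to 5.43 to 6.91 CPM (log2 fold change 0.75), which lost its call without ESC replicate 2 (0.54, adjusted p = 0.0665). Dnmt3b, a de novo DNA methyltransferase, was at 194, 152 and 74.8 CPM in ESCs and 119 to 121 CPM at day 2, so the day 2 libraries fell inside the range of the ESCs. Without ESC replicate 3 it fell by 0.52 on the log2 scale (edgeR adjusted p = 5.6e-07). With the collagen score its log2 fold change was 0.68 (adjusted p = 4.93e-05), so the direction depended on the setting. Lef1 had no call (0.73) except without ESC replicate 3 (1.59, adjusted p = 0.000124).

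The members that rose included Sox3, an X-linked SOXB1 factor, from 0.739, 0.541 and 1.72 CPM to 7.87, 5.48 and 9.25 CPM (log2 fold change 2.90, SE 0.33, edgeR adjusted p = 8.17e-07). The secreted Wnt modulator Sfrp2 rose from 4.90, 6.16 and 6.73 CPM to 32.3, 30.2 and 29.0 CPM (2.36, SE 0.126), and Sox4 and the epithelial factor Grhl2 by 1.30 and 1.17. In each of these 4 genes all day 2 libraries were above all ESCs. The ETS genes Etv5 and Etv4, both outputs of ERK, moved in opposite directions, Etv5 from 334 to 490 CPM to 174 to 178 CPM (-1.26, SE 0.0926) and Etv4 from 54.5 to 120 CPM to 148 to 156 CPM (0.70, SE 0.179). For Etv4 the change was 0.43 without ESC replicate 3, the library with the lowest Etv4, and 1.5 with the collagen score.

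Among DNA methylation genes 4 of 20 rose and 13 fell, with a median log2 fold change of -0.33. The 4 were Dnmt3a, the second de novo methyltransferase, Dnmt3l, its catalytically inactive partner, Uhrf2 and Mbd2. Mbd2 rose by 0.38 and lost its call with the collagen score (0.25, adjusted p = 0.058). Dnmt3a was at 77.8, 72.6 and 59.0 CPM in ESCs and 200, 200 and 208 CPM at day 2 (log2 fold change 1.53, SE 0.0789, edgeR adjusted p = 7.49e-11), and Dnmt3l at 69.3, 51.2 and 30.2 CPM against 306, 316 and 297 CPM (2.61, SE 0.191). The groups did not overlap in either gene. The 5-methylcytosine oxidases Tet1 and Tet2 fell by 1.08 and 1.04 on the log2 scale, and Trim28 and Setdb1, which hold retroviral elements under H3K9 methylation, by 0.85 and 0.54. Polycomb genes also fell, 13 of 18 with 2 rising, and here the PRC2 methyltransferase Ezh2 changed by -1.04, its homologue Ezh1 by 1.02 and the H3K27 demethylase gene Kdm6b by -1.48.

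Germline genes rose as a group. Of 21 tested, 18 rose, 2 fell and 1 had no call, with a median log2 fold change of 1.61. Many such genes are known to be restrained by promoter DNA methylation and by the PRC1.6 complex. Its subunits E2F6 and MGA-MAX bind short motifs at their promoters. Not all members were silent in these ESCs, with Tex19.1 at 112 to 121 CPM and Ddx4 at 34.3 to 56.0 CPM. Neither promoter methylation nor the complex was measured. Sycp3, a synaptonemal complex gene at chr10:88459587-88473236, was at 7.99, 9.95 and 12.1 CPM in ESCs and 48.4, 50.4 and 52.0 CPM at day 2 (log2 fold change 2.33, SE 0.105, edgeR adjusted p = 1.96e-11). The piRNA pathway gene Asz1 rose from 2.55, 3.65 and 7.65 CPM to 75.9, 68.2 and 78.1 CPM (4.00, SE 0.194). Mael, another gene of that pathway, rose from between 27.04 and 30.6 CPM to 86.6 to 91.7 CPM, and Slc25a31, the germ cell ADP/ATP carrier, from 4.64, 3.18 and 9.50 CPM to 44.1, 31.6 and 41.0 CPM. Every day 2 library lay above every ESC library for these genes, and ESC replicate 3 was the highest ESC for Sycp3, Asz1 and Slc25a31. Tex19.1 and Majin fell, by 0.87 and 0.87 on the log2 scale. Without ESC replicate 3, 18 members again rose.

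The promoters of this list are shown because many of its members hold the letters of those motifs. RefSeq (GRCm38.p6) promoters of 300 bases, 250 before to 50 after the start site, were found for 20 of the 21 genes. The E-box of MAX and MGA, CACGTG, read on both strands, stood in 12 of the 20 (60%), against 8.09% of all 27025 genes with such a promoter. The E2F6 motif TCCCGC stood in 10 of the 20 (50%), against 22% of all. The motifs do not overlap each other in the 4 examples below, which give the 200 bases before the start site with both motifs in capitals. A match is a description of the letters only, and binding was not measured. Matches were not confined to members that rose: Tex19.1, which fell, holds the E2F6 motif, and the member without a call holds both. Motifs were also searched for in other lists. The CArG box stood in 3 of 17 immediate early promoters (17.6%, against 1.81% of all genes). The TCF/LEF motif stood in 2 of 14 Wnt target promoters (14.3%, against 4.27%). The sterol element stood in 1 of 16 cholesterol gene promoters (6.25%, against 1.44%) and the STAT3 motif in 3 of 16 LIF target promoters (18.8%, against 9.55%). These shares rest on few genes, and some of the matches were in members without a call.
Sycp3 (chr10:88459387-88459586, plus strand): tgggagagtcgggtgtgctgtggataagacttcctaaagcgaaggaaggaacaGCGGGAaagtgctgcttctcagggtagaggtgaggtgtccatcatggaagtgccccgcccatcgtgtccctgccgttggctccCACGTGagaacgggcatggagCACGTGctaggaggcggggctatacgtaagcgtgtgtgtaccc
Ddx4 (chr13:112652311-112652510, minus strand): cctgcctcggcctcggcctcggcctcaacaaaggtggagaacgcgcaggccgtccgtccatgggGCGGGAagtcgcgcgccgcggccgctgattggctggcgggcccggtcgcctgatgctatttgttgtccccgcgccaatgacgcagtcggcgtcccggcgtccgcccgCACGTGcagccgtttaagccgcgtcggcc
Slc25a31 (chr3:40708671-40708870, plus strand): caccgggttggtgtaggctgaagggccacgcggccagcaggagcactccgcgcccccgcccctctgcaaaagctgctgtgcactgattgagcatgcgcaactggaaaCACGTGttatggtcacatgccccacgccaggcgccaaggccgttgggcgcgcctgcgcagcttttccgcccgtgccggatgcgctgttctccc
Taf7l (chrX:134476491-134476690, minus strand): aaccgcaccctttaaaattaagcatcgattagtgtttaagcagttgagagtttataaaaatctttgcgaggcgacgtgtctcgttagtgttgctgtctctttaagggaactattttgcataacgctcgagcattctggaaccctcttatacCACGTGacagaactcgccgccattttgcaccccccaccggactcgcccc
Sycp3 has 2 E-boxes and 1 E2F6 match in this stretch, Ddx4 has 1 of each, and Slc25a31 and Taf7l have 1 E-box each. Ddx4, an RNA helicase of germ cells, rose by 0.74 on the log2 scale (0.45 with the collagen score) and Taf7l, an X-linked TFIID subunit gene, by 2.07.

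Genes of X-linked germline families were among the largest increases. Of 7 tested Magea genes on the X all 7 rose (median log2 fold change 5.87), of 16 Rhox genes 14 rose and 1 fell (3.19), and of 10 Xlr genes 10 rose (0.93). Of 6 Fthl17 genes 3 rose and 2 fell (0.89), and of 3 Mageb and 3 Tex genes 2 each rose and 0 fell. These groups were formed by the start of the gene symbols and chosen after their values were seen. Some of them hold near-identical copies, whose reads may have been split or lost. The Tex genes share only the start of their symbols and are not a family. Magea5 was at 0.134, 0.474 and 0.198 CPM in ESCs and 15.6, 14.7 and 16.9 CPM at day 2, and Pramel3 at 0.134, 0.135 and 0.660 CPM against 26.3, 25.8 and 30.3 CPM. Outside these 6 groups and Pramel3, of 559 other X-linked genes 48.1% rose and 24.5% fell (median log2 fold change 0.31), against 34.9% and 35.5% of 14806 autosomal genes (0.01). Chromosome medians of the autosomes lay between -0.14 and 0.11. Of 15 genes listed as X and Y chromosome markers 3 rose and 11 fell, with a median log2 fold change of -1.12. Rlim, an X-linked activator of Xist, rose by 0.92, while the X-linked helicase gene Ddx3x changed by -1.14.

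Genes of the 2-cell-like state were split by ESC replicate 3. Of 13 tested, 6 rose and 0 fell in edgeR (7 and 0 at an unadjusted p under 0.05, 6 and 0 in DESeq2), with a median log2 fold change of 0.84. Without ESC replicate 3 the count was 11, and with the collagen score as a covariate 3 rose and 3 fell. Without ESC replicate 1 or 2, 1 member fell. Usp17lc was at 0.672, 0.541 and 1.58 CPM in ESCs against 5.92, 4.58 and 6.18 CPM at day 2, and Usp17la at 1.81, 2.91 and 5.67 CPM against 11.1, 10.5 and 13.5 CPM (log2 fold change 1.76, and 1.01 with the collagen score). Both named genes are of the Usp17l group and do not stand for the list. In edgeR 7 members had no call, most Zscan4 genes among them. The Usp17l and Zscan4 genes are near-identical copies, so single members are uncertain.

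Imprinted genes, which are read from 1 parental allele, went both ways: 11 of 25 rose and 7 fell, and without ESC replicate 3 11 fell. Dlk1, a paternally expressed Notch-like ligand gene at chr12:109452485-109463336, rose from 3.29, 2.44 and 3.23 CPM to 39.8, 39.6 and 37.9 CPM (log2 fold change 3.71, SE 0.146, edgeR adjusted p = 4.69e-12). Peg10, Sgce and Mest rose by 2.89, 2.28 and 2.01. The growth-factor receptor adaptor gene Grb10 fell from 253, 253 and 250 CPM to 42.5, 47.2 and 39.4 CPM (-2.55, SE 0.0822), Peg3 by 1.47 and Phlda2 by 1.31 on the log2 scale. The rises and falls were each without overlap between the groups.

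**Figure D3:**
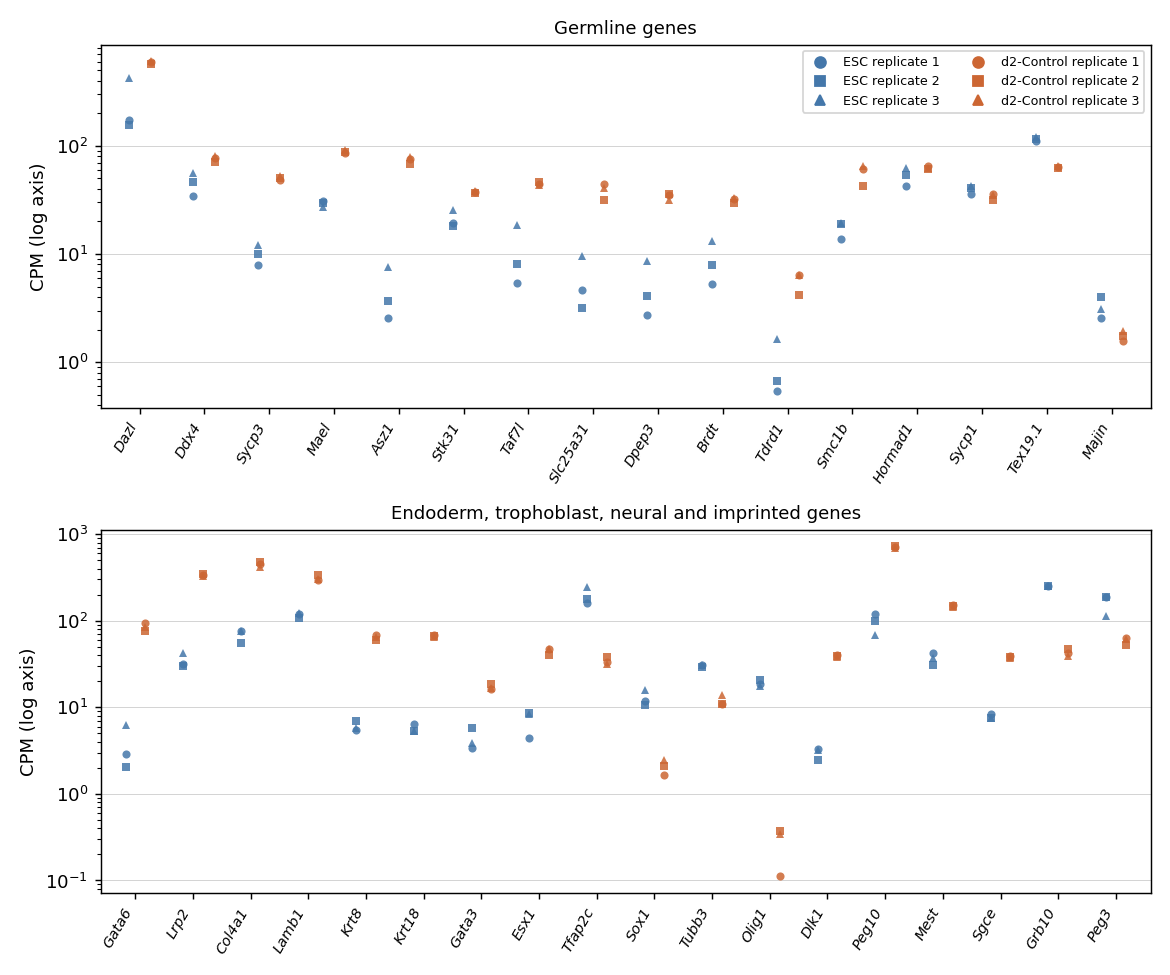
CPM (log axis) of germline genes (top) and of endoderm, trophoblast, neural and imprinted genes (bottom) in each library, ESC in blue and d2-Control in orange. Asz1, Gata6, Krt8, Krt18 and Dlk1 lie about 10 times or more above the ESC level at day 2, while Tfap2c, Sox1, Olig1 and Grb10 lie below it.

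Immediate early genes, which ERK and serum response factor switch on within minutes, fell: 12 of 22 fell, 2 rose and 8 had no call, with a median log2 fold change of -1.10. Egr1, a direct ERK output, was at 415, 352 and 178 CPM in ESCs and 1.00, 0.378 and 1.08 CPM at day 2 (log2 fold change -8.57, SE 0.354, edgeR adjusted p = 7.52e-12), and at 27.6 to 30.8 CPM in control cells at day 4. Fosb fell from 130, 92.9 and 51.6 CPM to 0.725, 0.142 and 0.346 CPM, and Fos from 227, 196 and 113 CPM to 5.47, 6.85 and 5.62 CPM (-4.90, SE 0.225). All 3 genes ranked the ESC libraries in the same order as fibroblast RNA, whose part in these levels was not tested. With the collagen score as a covariate 11 members fell and 4 rose, and no call was lost for Egr1, Fos, Fosb or Ier2. Klf10 and Dusp2, a nuclear ERK phosphatase gene, rose by 0.71 and 3.21. Of 18 ERK feedback and ETS genes 5 rose and 9 fell, with 5 falling without d2-Control replicate 2, 3 rising and 4 falling with only the 6 libraries in the fit, and 8 rising and 4 falling with the collagen score. Dusp4 and Phlda1 rose from 4.55 to 5.89 and from 10.8 to 19.2 CPM to 23.6 to 28.1 and 40.7 to 43.3 CPM. Spry2, a feedback inhibitor of the FGF receptor pathway, fell from 94.4, 87.4 and 50.5 CPM to 17.1, 17.1 and 18.8 CPM (-2.13, SE 0.175).

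FGF receptors rose. Of 17 FGF ligands and receptors 9 rose and 6 fell, with a median log2 fold change of 0.56. With a stricter filter of 10 CPM in 3 libraries, 2 fell. Fgfr1, the main receptor of the epiblast, was at 129, 132 and 154 CPM in ESCs and 250, 248 and 234 CPM at day 2 (log2 fold change 0.82, SE 0.0635), Fgfr4 at 2.22, 3.18 and 7.91 CPM against 29.2, 32.1 and 30.7 CPM (2.78, SE 0.28), and Fgfrl1 rose by 1.67. The ligand Fgf8 rose from 0.0672 to 0.132 CPM to 3.01 to 3.17 CPM, and Fgf4, the autocrine ligand of ESCs, changed by -0.68. Among 20 Nodal and Activin genes 7 rose and 8 fell. The feedback antagonists Lefty2 and Lefty1, direct targets of the pathway, were among the 7: Lefty2 was at 2.96, 1.90 and 0.462 CPM in ESCs and 21.8, 20.8 and 28.4 CPM at day 2 (log2 fold change 3.75, SE 0.332, edgeR adjusted p = 4.37e-08), and Lefty1 rose by 2.49. Their SMAD2/3 partner Foxh1 rose by 1.49. Every day 2 library was above every ESC library for these 3 genes. The receptor gene Acvr1b and the activin-binding gene Fst changed by -0.53 and -1.26.

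Targets of LIF fell: of 18 tested, 13 fell and 1, the kinase gene Pim3, rose, with a median log2 fold change of -0.73. Part of this list, such as Klf4 and Tfcp2l1, is also in the naive list, and part of it is receptor genes. Some of the 13 that fell, receptor genes among them, ranked the ESC libraries in the order of their fibroblast RNA. The part of that RNA in these falls was not tested. Socs3, the feedback inhibitor of LIF signalling, fell from 120, 126 and 128 CPM to 46.0, 37.0 and 38.3 CPM (log2 fold change -1.63, SE 0.147, edgeR adjusted p = 5.4e-08), and Bcl3 from 51.0 to 63.5 CPM to at most 10.2 CPM (-2.81). Stat3 itself changed by -0.45. The count of members that rose was 5 with the collagen score, 2, 3 and 2 without ESC replicates 1, 2 and 3, and 2 with the replicate number as a block, with upper quartile scaling and with either other filter on low counts (none, or 10 CPM in 3 libraries). Of 19 Wnt and beta-catenin targets 5 rose and 5 fell (3 with only the 6 libraries in the fit or with the collagen score). Their median was 0.06, and with the stricter filter of 10 CPM in 3 libraries 2 rose and 2 fell. The negative feedback gene Axin2 changed by -1.47 (-0.69 with the collagen score) and Ccnd1 by -0.92 (-0.57), while Tnfrsf19 and Tcf7 rose by 1.30 and 0.41. Of 17 BMP and Id genes 9 rose and 4 fell, with a median of 0.61. Without d2-Control replicate 3 or with only the 6 libraries in the fit, 2 fell. The stricter filter left 5 that rose and 1 that fell. Id2, the ligand gene Bmp8b and the antagonist gene Nog rose by 0.83, 2.58 and 2.28. Id3, a direct target of the pathway, was at 65.8, 32.9 and 6.79 CPM in ESCs, in the order of their fibroblast RNA, and 2.08 to 2.46 CPM at day 2 (-3.95, and -1.43 with the collagen score).

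**Figure D4:**
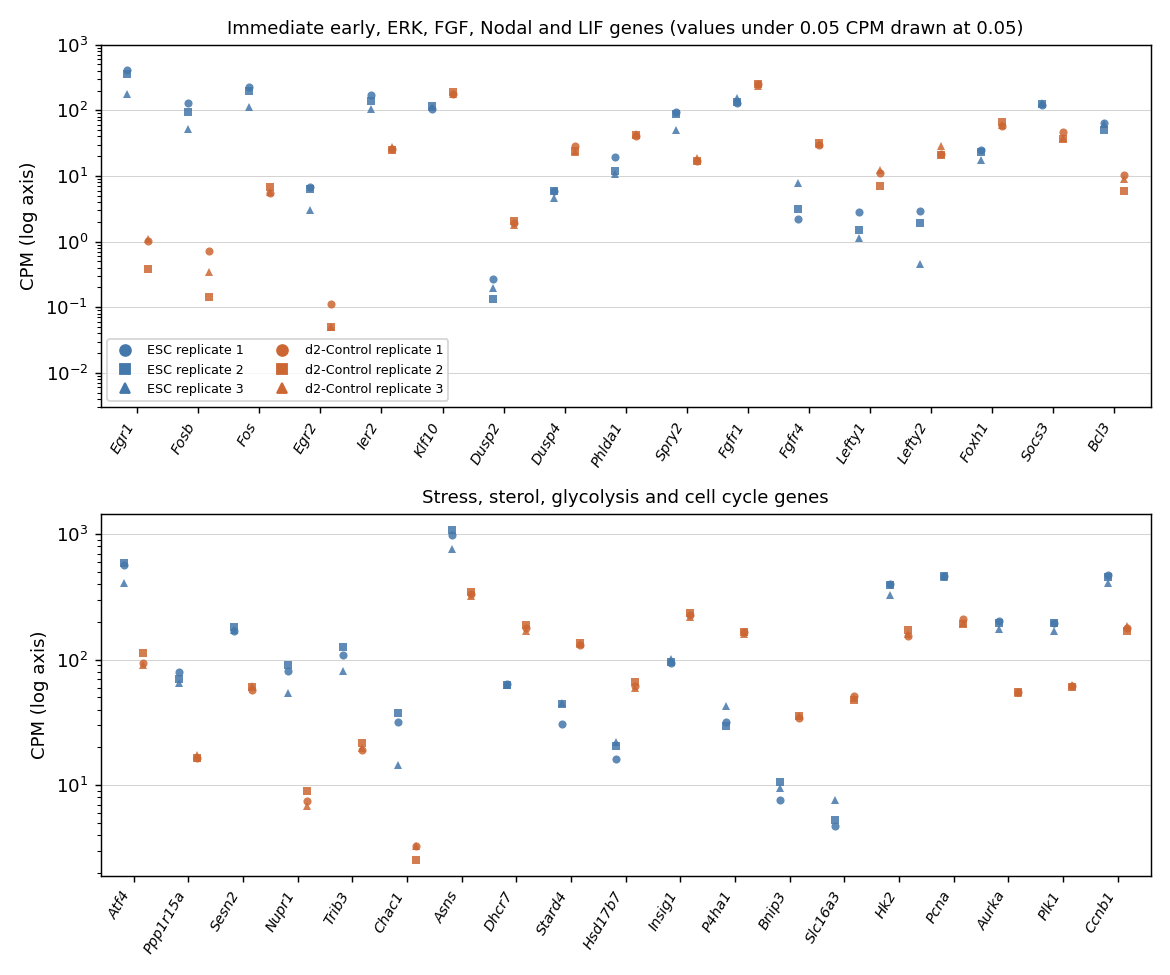
CPM (log axis) of immediate early, ERK, FGF, Nodal and LIF genes (top) and of stress, sterol, glycolysis and cell cycle genes (bottom) in each library, ESC in blue and d2-Control in orange. Egr1 and Fosb lie over 100 times lower at day 2, Lefty2 higher, Atf4 and its targets lower, and the 4 sterol genes higher, with no overlap between the groups.

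Endoderm genes rose, while trophoblast genes went both ways. Of 22 endoderm genes tested 16 rose and 1, Sparc, fell, with a median log2 fold change of 1.51. Gata6, the transcription factor that specifies primitive endoderm, was at 2.89, 2.03 and 6.20 CPM in ESCs and 93.8, 75.8 and 84.5 CPM at day 2 (log2 fold change 4.5, SE 0.198, edgeR adjusted p = 1.43e-11). The endocytic receptor gene Lrp2 (chr2:69424335-69586029) rose from 31.6, 29.9 and 42.7 CPM to 338, 348 and 328 CPM (3.28, SE 0.133). Col4a1 and Lamb1, basement membrane genes, rose by 2.71 and 1.42. The groups did not overlap in these 4 genes. The 8 defining primitive endoderm markers summed to 28.6 to 49.4 CPM in ESCs and 162 to 179 CPM at day 2, with 6 of 8 higher and none at 0 in all 6 libraries. How many cells carry this RNA was not tested. Of 15 trophoblast genes 9 rose and 5 fell (2 without ESC replicate 1, with only the 6 libraries in the fit or with the collagen score). With a stricter filter of 10 CPM in 3 libraries, 3 fell. The keratin genes Krt8 and Krt18, markers of simple epithelium, rose from 5.51, 7.04 and 5.80 and from 6.45, 5.35 and 5.28 CPM to 68.2, 60.5 and 64.9 and to 69.2, 66.3 and 65.7 CPM. Gata3 and Esx1 rose by 1.99 and 2.66, whereas Tfap2c, a factor of trophoblast and germ cells, fell from 159, 177 and 248 CPM to 33.8, 37.7 and 31.3 CPM (-2.51, SE 0.126).

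Of 18 listed streak and mesoderm genes 11 passed the low-count filter. Of these, 7 rose and 3 fell (1 without ESC replicate 1 or with the collagen score), with a median log2 fold change of 1.21. With a stricter filter of 10 CPM in 3 libraries, 1 rose and 0 fell. Hand1, a mesoderm factor gene, had 0 counts in ESC replicates 1 and 2, was at 0.264 CPM in replicate 3 and rose to 3.85 to 5.52 CPM. T, the Brachyury gene, was at 0.528 to 1.54 CPM in ESCs and 0.0945 to 0.391 CPM at day 2, and its fall (-1.67) lost its call without ESC replicate 1 (-1.12, adjusted p = 0.073) and with the collagen score (-0.63, adjusted p = 0.464). Wnt8a had 2 counts over the ESC libraries and 182 at day 2, a ratio of 65.6 (95% exact counting interval 17.9 to 545). Of 12 neural genes tested 6 fell, 2 rose (4 with no filter) and 4 had no call. The stricter filter left 3 that fell and 0 that rose. Sox1 fell from 11.8, 10.6 and 15.9 CPM to 1.67, 2.08 and 2.46 CPM (log2 fold change -2.61, SE 0.191, edgeR adjusted p = 4.42e-09) and the tubulin gene Tubb3 by 1.34 on the log2 scale, while Pax6 rose from 0.198 to 0.677 CPM to 1.12 to 2.27 CPM. The oligodendrocyte factor genes Olig1 and Olig2 were among the largest falls of all genes. Olig1 was at 18.5, 20.6 and 17.7 CPM in ESCs and 0.112 to 0.378 CPM at day 2, and Olig2 had 740 counts over the ESCs and 3 at day 2, a ratio of 342 (95% exact counting interval 117 to 1660).

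Fibroblast and matrix genes separated into those that followed feeder RNA and those that did not. Of 28 fibroblast genes tested 14 fell and 5 rose. Without ESC replicate 3, 22 fell, and with the collagen score, which is built from 3 of them, 2 fell and 20 rose. Col3a1 was at 557, 262 and 37.5 CPM in ESC replicates 1 to 3 and 13.7 to 18.1 CPM at day 2 (log2 fold change -4.12, and -0.80 with the collagen score). Col1a1, at 507, 281 and 88.2 CPM, reached 80.7 to 92.3 CPM at day 2, which ESC replicate 3 lay within. Its log2 fold change was -1.77, -1.11 without ESC replicate 1 and 0.20 (adjusted p = 0.0236) with the collagen score. In contrast Acta2, smooth muscle actin, was at 9.47, 9.47 and 8.71 CPM in ESCs, with no such gradient, and at 40.4, 34.3 and 30.6 CPM at day 2 (log2 fold change 1.93, SE 0.136), and Tagln rose by 1.65. Of 19 matrix and basement membrane genes 11 rose and 4 fell. Lama5, the laminin chain of the epiblast basement membrane, rose from 278, 306 and 292 CPM to 808, 854 and 777 CPM (1.48, SE 0.0669), and the phosphoprotein gene Spp1 fell from 844 to 1031 CPM to 241 to 247 CPM (-1.95, SE 0.0759). The junction genes Ocln and Dsp rose by 2.00 and 1.61.

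Genes of the integrated stress response fell. In this pathway ATF4 is translated when eIF2alpha is phosphorylated and switches on genes of amino acid supply and of stress. Of 31 genes tested 26 fell and 0 rose in edgeR (1 rose at an unadjusted p under 0.05, and 1 in DESeq2, without ESC replicate 3 or d2-Control replicate 3, and with upper quartile scaling or either other filter), with a median log2 fold change of -1.28 and 21 lower by at least 2-fold. Atf4 (chr15:80255184-80257545) was at 572, 588 and 406 CPM in ESCs and 93.7, 112 and 91.3 CPM at day 2 (log2 fold change -2.40, SE 0.125, edgeR adjusted p = 8.49e-11). The phosphatase subunit gene Ppp1r15a, which ends the response, fell from 80.5, 70.1 and 65.4 CPM to 16.5, 16.4 and 17.5 CPM (-2.10, SE 0.0887). The stress gene Nupr1 fell from 80.9, 91.4 and 54.7 CPM to 7.53, 9.07 and 6.79 CPM, and Asns, asparagine synthetase, from 995, 1081 and 767 CPM to 332, 349 and 320 CPM. No group overlapped in these genes, and ESC replicate 3 was the lowest ESC in each. Sesn2, Trib3 and Chac1 changed by -1.55, -2.39 and -3.20.

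Promoters of 4 of these genes are shown because they hold the C/EBP-ATF response element, TGATGNAA, the letters that ATF4 heterodimers bind. Read on both strands, it stood in 9 of the 28 members with a RefSeq promoter (32.1%), against 4.51% of all 27025 genes. The 200 bases before the start site are given with each match in capitals, from GRCm38.p6. The match is a description of the letters, and binding was not measured.
Asns (chr6:7693210-7693409, minus strand): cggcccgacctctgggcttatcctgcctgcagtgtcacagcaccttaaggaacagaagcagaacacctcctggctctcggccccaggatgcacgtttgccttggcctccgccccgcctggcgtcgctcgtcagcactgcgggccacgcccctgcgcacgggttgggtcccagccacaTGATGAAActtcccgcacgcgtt
Nupr1 (chr7:126625471-126625670, minus strand): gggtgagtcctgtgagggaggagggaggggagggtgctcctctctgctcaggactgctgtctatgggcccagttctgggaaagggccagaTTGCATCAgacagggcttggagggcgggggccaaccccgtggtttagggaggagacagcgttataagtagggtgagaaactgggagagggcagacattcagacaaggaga
Slc7a11 (chr3:50443614-50443813, minus strand): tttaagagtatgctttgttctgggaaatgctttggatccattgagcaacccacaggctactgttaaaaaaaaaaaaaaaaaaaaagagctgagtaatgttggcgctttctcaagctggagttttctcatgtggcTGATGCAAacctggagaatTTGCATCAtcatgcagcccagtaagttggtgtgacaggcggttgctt
Chac1 (chr2:119351042-119351241, plus strand): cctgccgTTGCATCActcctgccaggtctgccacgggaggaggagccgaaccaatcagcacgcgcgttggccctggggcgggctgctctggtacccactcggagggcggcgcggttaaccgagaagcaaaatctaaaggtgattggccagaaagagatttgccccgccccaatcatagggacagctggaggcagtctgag
Slc7a11, the cystine transporter gene with 2 matches, was at 4.64, 3.52 and 0.726 CPM in ESCs and 0.432 to 0.520 CPM at day 2 (log2 fold change -2.60, edgeR adjusted p = 0.000153). Its call was lost with the collagen score (-0.91, adjusted p = 0.149). Asns, Nupr1 and Chac1 have 1 match each.

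Heat shock genes fell as well, 11 of 15 with 2 rising and a median of -0.47, among them the chaperone gene Hsph1 from 208 to 236 CPM to at most 79.1 CPM (-1.53, SE 0.0597), but the small heat shock gene Hspb1 rose from 285, 229 and 261 CPM to 833, 796 and 775 CPM (1.63, SE 0.123). Of 22 p53 targets 11 rose and 4 fell (15 and 2 without ESC replicate 3, 7 rising without ESC replicate 2, 6 and 6 with the collagen score, 6 and 2 with only the 6 libraries in the fit, and 2 falling without d2-Control replicate 1 or 3 and with upper quartile scaling). Bbc3, which encodes PUMA, was at 21.2, 25.4 and 54.4 CPM in ESCs and 81.5 to 96.5 CPM at day 2 (1.43, and 0.77 with the collagen score), and Pmaip1 and Sesn1 rose by 1.45 and 1.24. ESC replicate 3 was the nearest of the ESCs to day 2 for Bbc3. Trp53 itself fell from 327 to 379 CPM to 189 to 196 CPM (-0.90, SE 0.0556).

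Sterol genes rose. Of 24 cholesterol synthesis and SREBP2 target genes 17 rose and 3 fell, with a median log2 fold change of 0.42. Dhcr7, the enzyme of the last step to cholesterol, was at 64.1, 62.5 and 63.5 CPM in ESCs and 178, 189 and 169 CPM at day 2 (log2 fold change 1.5, SE 0.0603, edgeR adjusted p = 5.65e-12). Hsd17b7 and the sterol sensor gene Insig1 rose by 1.68 and 1.23, and the sterol carrier gene Stard4 by 1.74. The lipogenic regulator gene Mlxipl (ChREBP) rose from 7.86, 10.5 and 10.5 CPM to 50.8, 55.7 and 51.0 CPM (2.45, SE 0.127), the desaturase gene Scd2 by 1.09 and malic enzyme Me1 by 1.61, whereas Fasn, fatty acid synthase, changed by -0.49. All day 2 libraries were above all ESCs for each of these except Fasn, for which they were below.

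Respiratory chain genes fell in small steps. Of 35 tested 28 fell and 1, Uqcrfs1, rose (0.66, and 1.01 with the collagen score), with a median of -0.28, and none changed by 2-fold in edgeR. Cox5a, a cytochrome oxidase subunit gene, was at 378, 363 and 413 CPM in ESCs and 211, 231 and 212 CPM at day 2 (log2 fold change -0.82, SE 0.0761). Of 22 glycolysis genes 10 rose and 6 fell. The lactate exporter gene Slc16a3 rose from 4.77, 5.28 and 7.65 CPM to 51.5, 48.1 and 49.6 CPM (3.07, SE 0.308), while Hk2, hexokinase 2, fell from 404, 394 and 329 CPM to 155, 171 and 160 CPM (-1.21, SE 0.103). Of 21 hypoxia-inducible genes 8 rose, 2 fell and 11 had no call. P4ha1, a collagen prolyl hydroxylase gene, rose by 2.24 and the mitophagy receptor gene Bnip3 of the mitophagy list by 1.92, but Vegfa changed by -0.92. Of 42 cytosolic ribosomal protein genes 29 fell and 0 rose in edgeR (0 at an unadjusted p under 0.05, 0 in DESeq2, 1 without ESC replicate 3, 2 with upper quartile scaling, and 3 with the stricter filter), with a median of -0.30. Eno1 of the glycolysis list, picked for its value, was at most 0.135 CPM in the 6 libraries and Rpl30 at most 1.75 CPM, so members of these lists with near-identical copies in the genome are uncertain.

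Genes of S, G2 and M phase fell. Of 24 G2 and M phase genes 22 fell and 0 rose in edgeR (0 at an unadjusted p under 0.05 and 0 in DESeq2), with a median log2 fold change of -0.56. The mitotic kinase gene Aurka was at 203, 195 and 175 CPM in ESCs and 54.9, 55.1 and 54.0 CPM at day 2 (log2 fold change -1.80, SE 0.0673, edgeR adjusted p = 2.79e-12), Plk1 at 197, 194 and 169 CPM against 61.2, 60.2 and 62.6 CPM, and Ccnb1, cyclin B1, at 471, 457 and 405 CPM against 178, 170 and 186 CPM. Each of these was lower in every day 2 library. Of 26 S phase genes 17 fell and 4 rose, and Pcna, the replication clamp, fell from 457 to 464 CPM to 192 to 212 CPM (-1.20, SE 0.0487). Of 19 cyclins, CDK inhibitors and related genes 6 rose, 7 fell and 6 had no call. The CDK inhibitor genes Cdkn1c and Cdkn2a rose by 3.02 and 1.74, and the cyclin gene Ccnd3 changed by -0.85. Mycn, a MYC family gene, fell from 168, 164 and 115 CPM to 22.4, 21.1 and 23.2 CPM (-2.74, SE 0.117), and the mRNA-binding gene Igf2bp1 from 688 to 786 CPM to 297 to 309 CPM (-1.30). Pfas, an enzyme of purine synthesis, changed by -1.06, and 11 of 18 purine genes fell with 4 rising.

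**Figure D5:**
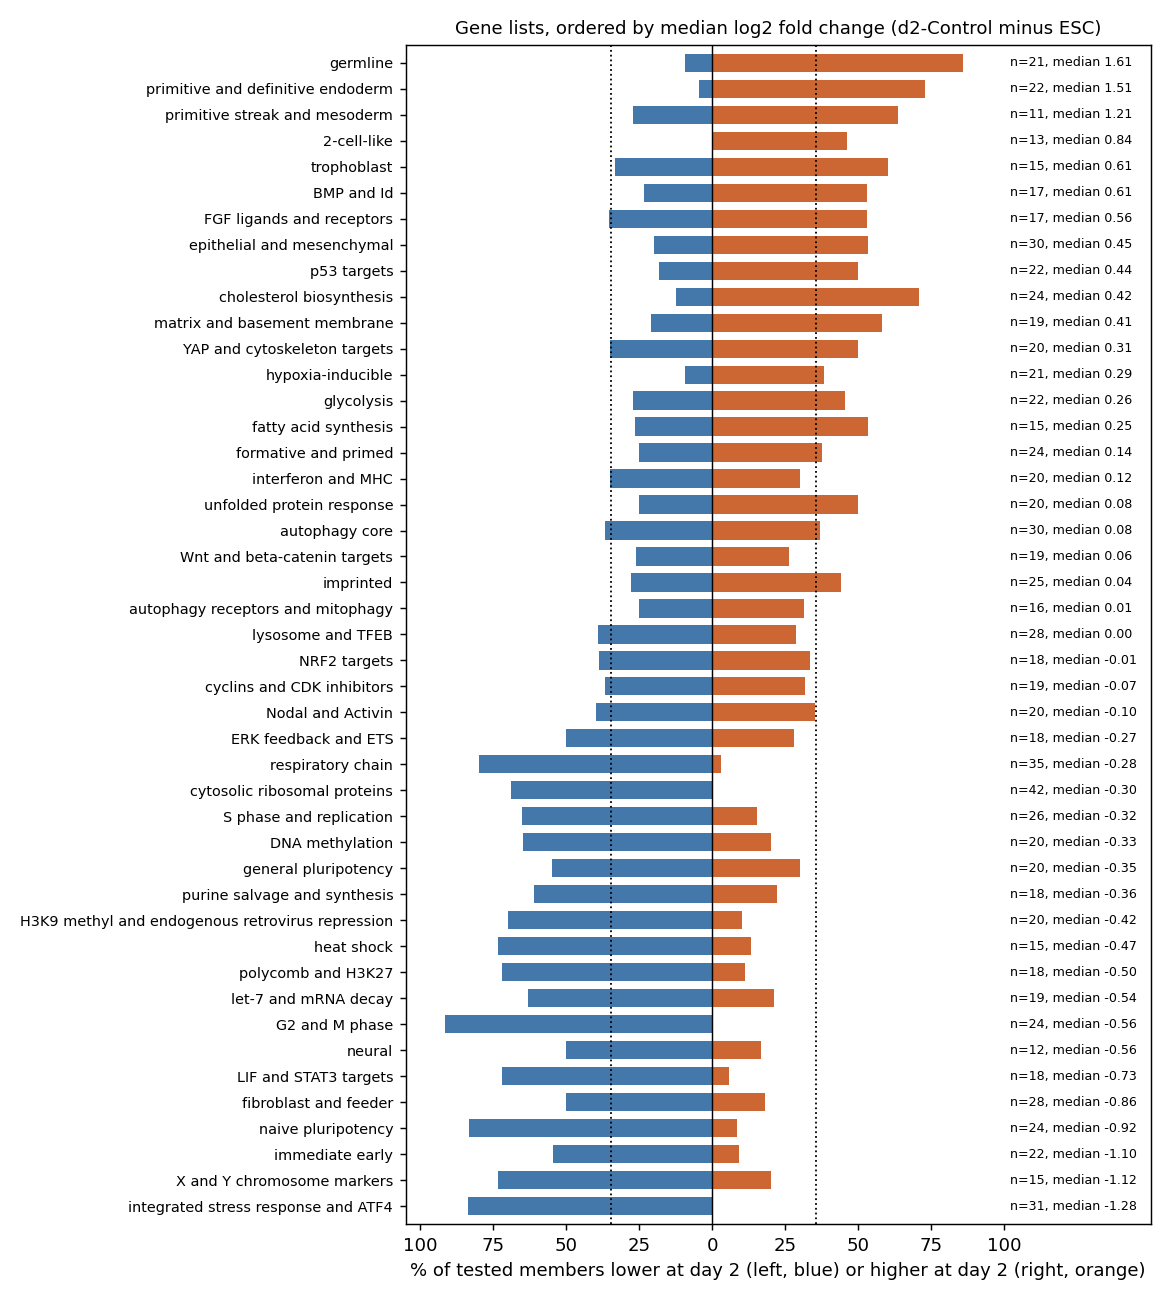
Share of tested members of 45 gene lists that were lower (blue, left) or higher (orange, right) at day 2, in percent, ordered by the median log2 fold change printed with the number of tested members. Dotted lines mark the background over all tested genes, 34.9% lower and 35.6% higher. Germline and endoderm lists stand at the top, and the stress response, X and Y chromosome marker, immediate early and naive lists at the bottom.

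Autophagy genes, on which the series turns, were near the background. Of 30 core genes 11 rose and 11 fell, with a median log2 fold change of 0.08. The initiating kinase gene Ulk1 fell from 475, 491 and 566 CPM to 259, 265 and 256 CPM (-0.98, SE 0.0593, edgeR adjusted p = 5.11e-10), and Atg9a, the lipid scramblase of the early autophagosome, rose from 22.6 to 23.8 CPM to 42.1 to 46.3 CPM (0.94, SE 0.0711). The groups did not overlap in either gene. Of 28 lysosome genes 8 rose and 11 fell. The regulators Mitf and Tfeb fell by 2.90 and 1.05 on the log2 scale, and the lysosomal calcium channel gene Mcoln1 rose by 1.26. Among 18 NRF2 targets 6 rose and 7 fell, and the NRF2 adaptor gene Keap1 changed by -1.89.

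The genes with the largest differences among those past the test were partly of a kind that appears or disappears. Timd2, a ferritin receptor gene (chr11:46668960-46707107), had 0 counts in the 3 ESC libraries and was at 10.8, 11.01 and 12.5 CPM at day 2, at least 170-fold higher when 3 counts over the group are taken as the limit. The cytochrome P450 gene Cyp2c55 was at 0 in ESCs and 4.39 to 6.83 CPM at day 2, at least 85.1-fold higher. Ubd, a ubiquitin-like modifier gene (chr17:37193892-37196101), was at 8.73, 8.59 and 0.989 CPM in ESCs and at 0 in all 12 later libraries, at least 127-fold lower at day 2. Its adjusted p was 0.000374 in edgeR and 0.0636 in DESeq2, and ESC replicate 3 was the lowest ESC. Kbtbd11 (chr8:15011025-15033333) rose from 0.134, 0.271 and 0.330 CPM to 71.0, 67.1 and 73.6 CPM (log2 fold change 8.13, SE 0.136), and Mid1, a microtubule-associated ubiquitin ligase gene (chrX:169685199-169990798), from 4.23, 3.65 and 2.64 CPM to 319, 341 and 313 CPM (6.53, SE 0.109). The carbonic anhydrase gene Car4 and the channel gene Pkd2l1 rose by 5.63 and 5.31, each from under 1 CPM in every ESC library. Olah, a thioesterase gene, had 1 count in ESCs and 464 at day 2 (ratio 334, 95% exact counting interval 59.7 to 13200), and Magea3 2 and 444 (ratio 160, 44 to 1320).

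Falls at the far end included genes with the feeder gradient. Svep1 was at 41.5, 23.01 and 1.65 CPM in ESC replicates 1 to 3 and 0.142 to 0.346 CPM at day 2, and Mmp3 at 25.9, 7.71 and 0.528 CPM against 0.130 to 0.335 CPM. These follow the order of fibroblast RNA in the ESCs. With the collagen score as a covariate Svep1 was -2.62 (-6.38 without it), and Mmp3 had no call with the opposite sign (1.10, adjusted p = 0.517). Agtr2, with 1 count at day 2 and 358 over the ESCs, had no call with that score either (-1.56, adjusted p = 0.385). Egr2, another ERK output, was at 6.72, 6.43 and 3.03 CPM in ESCs and 0.0432 to 0.112 CPM at day 2. Of the 467 genes higher by at least 8-fold, 80.3% were above all ESCs in each of the 12 libraries of days 2 and 4, and of the 188 lower, 53.7% were below all ESCs in each. Those libraries include the 3 that define the difference, and the ESC values are the same ones that selected the genes. The matching share over all tested genes was not computed, so these shares are not read as a trait of the 8-fold genes.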

How the data were processed

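Polyadenylated RNA was sequenced in 15 libraries, of which the 3 titled ESC and the 3 titled d2-Control are compared. The authors deposited 1 table per library, holding raw counts, as whole numbers of reads for every gene symbol. The submitters' processing notes name featureCounts, DESeq2, StringTie and STAR and the builds GRCm38 and mm10. Their versions, settings, annotation, strandedness and handling of shared reads are not stated in the labels, so near-identical copies and overlapping genes are uncertain.

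The tests were run in edgeR 4.0.16 (R 4.3.3). The filter filterByExpr (minimum count 10, minimum total 15, by group) removed 9286 of 24982 genes. TMM factors were 0.906 to 1.04 among the 6 libraries. A quasi-likelihood model with 5 group means used all 15 libraries, and Benjamini-Hochberg adjustment ran over all tested genes, with a threshold of 0.05. The standard error is the log2 fold change divided by the square root of F. CPM was computed from the counts. Intervals and limits of 3 counts cover counting error only. A score of 3 collagen genes (log2 CPM) was a covariate in 1 alternative. The procedure was also run on simulated counts in which few genes changed and all groups had the same spread. These data differ in both, so that run is not used as support for the calls. Positions and promoters are RefSeq's on GRCm38.p6, whose symbols matched 98.2% of the genes tested.

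The comparison, the 45 lists, the markers and the motifs were chosen with earlier results of these data known. No set test was run: lists are described by counts and medians beside those of all genes. The rule for names allowed Atg7 and Hprt, any member of the 3 pluripotency lists, for each other list the 4 risen and the 4 fallen genes of smallest p, the 12 largest rises and falls (at least 5 CPM on average in the higher group, no overlap, no predicted or unnamed symbols) and genes at 0 in 1 group. Only some are named. Ddx4, Taf7l, Slc7a11, Asns, Trib3, Chac1, Col1a1, Ddx3y, Eif2s3y, Dnmt3b in its alternatives and the X-linked families were chosen after their values were seen. Replicate numbers did not pair the groups by the labels.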

Additional observations from a re-analysis of the deposited data

How the results depend on the processing

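Against 5589 higher and 5483 lower genes, the test against a 1.5-fold change gave 2954 and 2319, and no other setting moved a count by over 1.5 times. RLE scaling gave 5488 and 5576, upper quartile scaling 5824 and 5200, no filter 5959 and 5498, a stricter filter (10 CPM in 3 libraries) 4007 and 4038, DESeq2 1.42.0 5420 and 5527, the 6 libraries alone 4733 and 4718, and the collagen score 4769 and 4766. Leaving out 1 library at a time gave 5266 to 6062 higher and 5204 to 5742 lower, the most without ESC replicate 3. The stricter filter left fewer genes to test, and several lists above had smaller counts with it. Upper quartile scaling moved the median of all genes from 0.02 to 0.06. The replicate number as a block gave 5556 and 5426. Deviations of same-numbered samples correlated by 0.0492, 0.0288 and 0.0495, each the highest for its number, a hint from the data and not from the design. Of 193 named genes, 192 kept their direction and side of the threshold with the block, 193 with RLE scaling, 192 with DESeq2 and 180 with the collagen score. Bmp4, without a call, passed with the block (adjusted p = 0.0461), upper quartile scaling (0.042), no filter (0.0306) and the stricter filter (0.0486), over a range of 8.93e-07 to 0.38 across all settings. Direction reversed for 4 named genes. Lin28a was -0.183 without ESC replicate 3, 0.51 without ESC replicate 1 and 1.48 with the collagen score. With that score Dnmt3b was 0.684, Col1a1 0.202 and Mmp3 1.1. Col1a1 is part of that score. For the others the cause was not tested. The depth of 16318652 to 22290971 counts leaves genes such as Fgf5 at a few reads per library.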
